A study of Rattus norvegicus with 4 samples.

Results

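The junction genes described here were the connexins Gja1, Gja4, Gja5, Gjb1 and Gjb2, the cadherin Cdh2 and the catenins Jup and Ctnnb1. Their probe sets were all those of the array whose platform annotation gave exactly 1 gene symbol and that symbol was 1 of the 8. This gave 10 of 8799 probe sets, for 7 of the 4737 genes that the annotation names singly. Gja5 had 3 probe sets, Cdh2 had 2, and Gja1, Gja4, Gjb1, Gjb2 and Jup had 1 each, while no probe set was annotated to Ctnnb1 alone, so the beta-catenin transcript was not analysed here.

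The arrays measured RNA of young male rats' testes, from the outbred Sprague Dawley strain. The FSH antibody group had been given for 4 days an antibody, made in sheep, against the rat's own follicle-stimulating hormone (FSH). The control IgG group had been given sheep immunoglobulin for the same 4 days. Each group had 2 RNA samples and each sample its own array (Affymetrix U34, set A), so there were 4 arrays in all. The labels disagree on age: source names give postnatal day 18, the treatment protocol gives day 18 for the first injection and day 22 for collection, the series design gives day 14, and FSH antibody replicate 2 is titled by postnatal day 4 instead of by its treatment. Groups were therefore taken from the source names. By the protocol, about 20 organs with the same treatment went into every RNA sample; it calls them ovaries, although every source name gives testis and 1 animal. The labels do not settle how many animals stand behind an array, so p-values refer to RNA samples. They rest on the spread between samples of 1 group, both of the probe set itself and of others of similar intensity. Of 9.39 degrees of freedom in the fit, 2 come from the probe set itself. How far the antibody lowered FSH was not analysed here.

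Gap junctions are channels that join the cytoplasm of neighbouring cells and let ions and small molecules such as cAMP pass. They are built of connexins, and in the testis they link Sertoli cells, the nurse cells of the seminiferous tubule that carry the FSH receptor, with each other and with germ cells, and Leydig cells with each other. Cadherin junctions hold cells together. A cadherin on the cell surface binds its like on the next cell, and beta-catenin or plakoglobin ties its tail to the cytoskeleton. Between Sertoli cells and germ cells these contacts are taken apart and rebuilt as germ cells move through the epithelium.

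Marker lists for 10 cell types were read on each array. None of these lists was for a cell type of the ovary, so the testis and ovary labels were not tested against each other. Of 15 Sertoli cell markers on the array 12 passed the filter on dim probe sets given below. Over all 15, passed or not, intensities spanned from Clu at 6439.6 to 7459.2 down to Inhbb at 5.0 to 31.7. Of 9 spermatocyte markers 8 passed. Over all 9, passed or not, intensities spanned from the synaptonemal protein gene Sycp3 at 574.2 to 922.3 down to H1f6 at 6.8 to 11.4. No list had a marker at 0 on any array. Summed over the brightest probe set of each marker, 7 of the 10 lists overlapped between the groups. Of the other lists 2 lay higher and 1 lower after the FSH antibody. Among all tested probe sets, taken singly, the groups did not overlap in 37.4%. The Leydig cell sum (6 markers) was 1953 and 2118 on the FSH antibody arrays, against 2474 and 2501 on the control IgG arrays. The endothelial sum (7 markers) was 304.1 and 366.0 on the FSH antibody arrays, against 239.3 and 231.7 on the control IgG arrays. The macrophage sum (7 markers) was 318.9 and 355.7 on the FSH antibody arrays, against 281.0 and 274.5 on the control IgG arrays. Its 5 tested markers did not share a direction, with 3 higher, 2 lower and 0 called (55.7%, 44.3% and 0.284% of all tested genes). On the lower side, C1qb had 18.7 and 17.3 on the FSH antibody arrays, against 31.3 and 49.2 on the control IgG arrays. Spermatocyte sums differed widely within both groups, at 1696 and 1092 on the FSH antibody arrays and 1362 and 2180 on the control IgG arrays. The median log2 changes over the tested markers were -0.01 for Sertoli cells, -0.20 for Leydig cells, -0.03 for peritubular myoid cells, 0.25 for endothelium, 0.38 for macrophages, -0.05 for spermatogonia, -0.28 for spermatocytes, 0.08 for spermatids, -0.33 for erythroid cells and 0.16 for epididymis and rete.

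**Figure D1:**
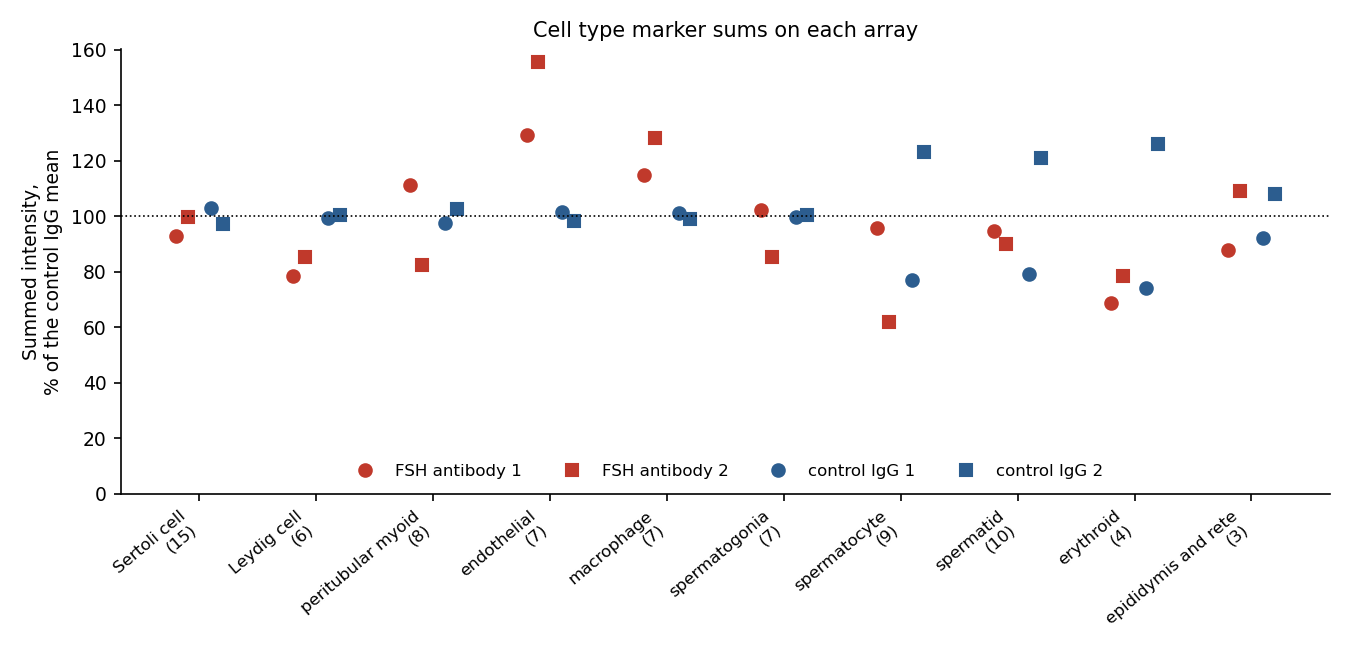
Summed intensity of the markers of each cell type (number of markers in brackets) on each array, as a percent of the control IgG mean of that list, with FSH antibody arrays in red and control IgG arrays in blue. The Leydig cell sums of both FSH antibody arrays lie below both control sums, the endothelial and macrophage sums lie above them, and the other 7 lists overlap.

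The question was how transcripts of cell junctions differ between testes after 4 days of FSH antibody and of control IgG. Intensities are linear, are scaled by array and are not comparable between probe sets. Changes are on the log2(intensity + 16) scale, FSH antibody minus control IgG, and understate the change of dim transcripts. Their standard error (SE) is that of the limma fit, which draws on other probe sets in the same way as the p-values. A probe set was tested where its mean log2 value over the 4 arrays reached 5.30, the 40th percentile of all probe sets. Of the 10 junction probe sets 8 were tested, for 6 genes, and in each of these 8 both groups lay above that level on their own. The other 2 probe sets, 1 of Gja5 and that of Gjb2, were too dim for the test.

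None of the 8 tested junction probe sets passed, with 0 at an adjusted p under 0.05 by limma with Benjamini-Hochberg adjustment over all 5252 tested probe sets. Over all tested probe sets 0.267% passed (14 probe sets). At an unadjusted p under 0.05 there were 4 of the 8 (Gja1, Jup and both probe sets of Cdh2), against 8.11% of all tested probe sets. The mean log2 value was higher after the FSH antibody for 6 of the 8 and lower for 2, against 55.3% higher and 44.7% lower among all tested probe sets. The groups did not overlap in 5 of the 8, with 4 higher and 1 lower after the FSH antibody, against 37.4% of all tested probe sets (21.9% higher, 15.5% lower). The median change was 0.29 over the 6 genes on their brightest probe sets and 0.03 over all 3169 tested genes. These genes were chosen with earlier results of the same arrays known, so the counts describe them and do not set them apart from other genes.

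**Figure D2:**
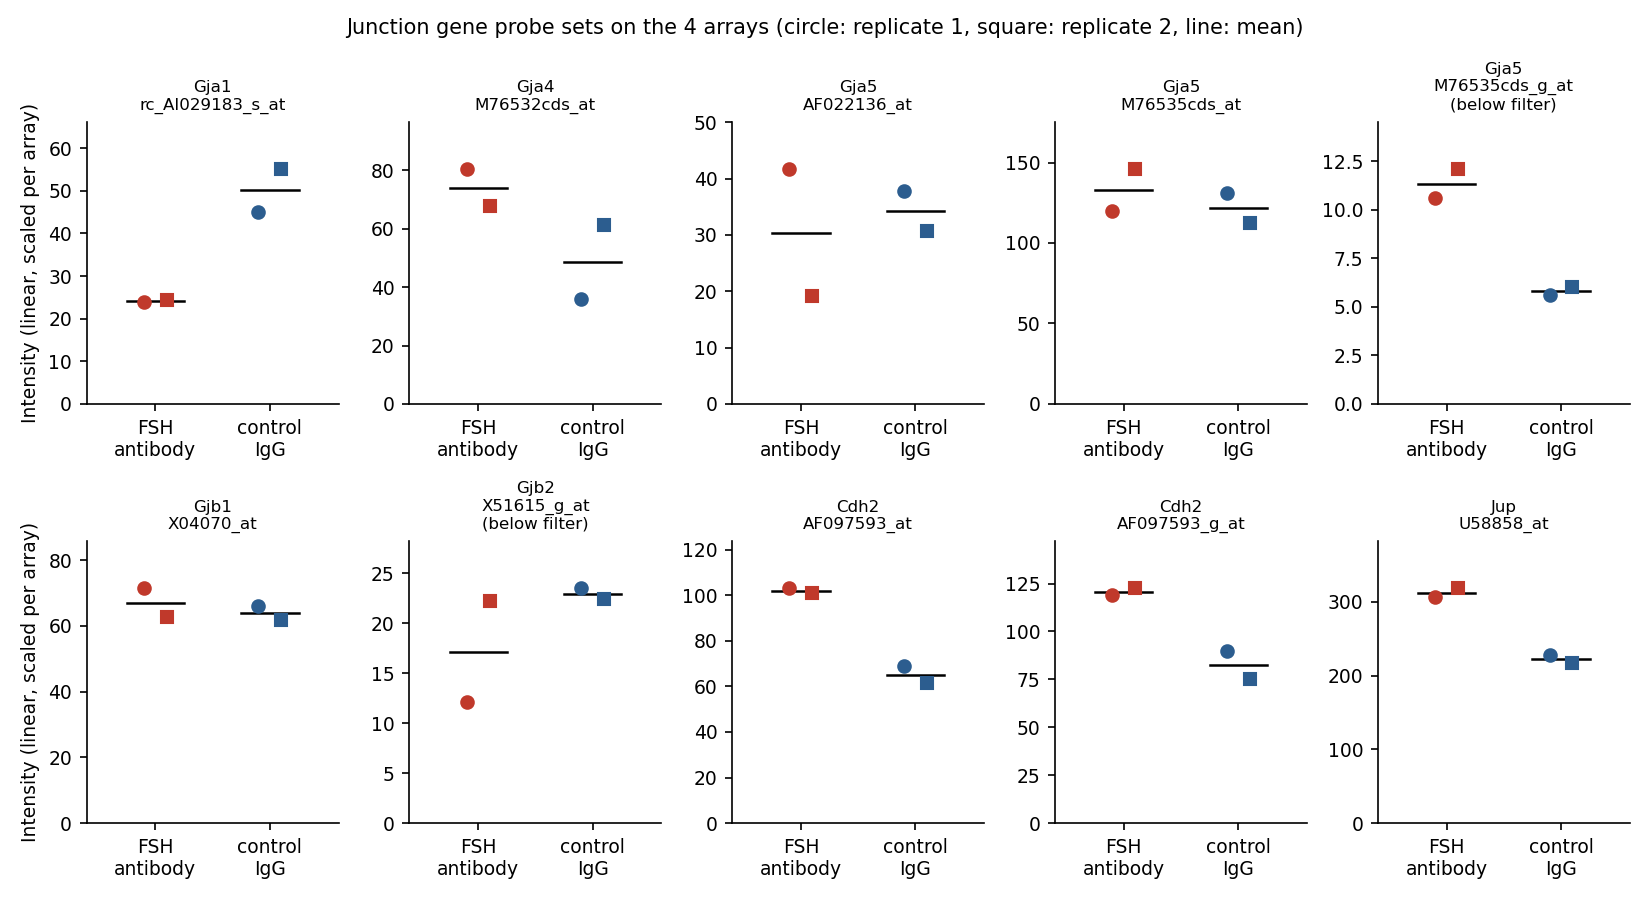
Linear intensity of each of the 10 junction probe sets, with FSH antibody arrays (red) left of control IgG arrays (blue), circles for replicate 1, squares for replicate 2 and a line at the mean; each panel has its own axis from 0. Gja1 is lower on both FSH antibody arrays, Gja4, both Cdh2 probe sets and Jup are higher on both, and Gjb1 and the tested Gja5 probe sets overlap.

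Gja1 encodes the connexin Cx43, the main gap junction protein of Sertoli cells, which is also made by Leydig cells and many other cell types. In the mouse, loss of this gene from Sertoli cells alone halts germ cell development. Its probe set rc_AI029183_s_at had intensities of 24.0 and 24.4 on the FSH antibody arrays, against 45.1 and 55.1 on the control IgG arrays. Both FSH antibody arrays lay below both control arrays, and they differed from each other by 0.01 on the log2 scale, while the control arrays differed by 0.22. The means were 24.2 ± 0.283 in the FSH antibody group and 50.1 ± 7.07 in the control IgG group (SD, n = 2 arrays each), a ratio of 0.483. The change was -0.71 ± 0.20 (SE), with a 95% interval of -1.17 to -0.26 and an adjusted p of 0.353 by limma. By unadjusted p it ranked 90 of 5252, so 1.71% of the tested probe sets had a p as small. The Leydig cell markers were also lower in sum on both FSH antibody arrays, but not 1 by 1. Of 6 markers 4 were lower, 2 were higher (Cyp11a1 and Hsd17b3) and 1 was called. The shares among all tested genes were 44.3% lower, 55.7% higher and 0.284% called. Cyp17a1, which makes up most of the Leydig cell sum, overlapped between the groups. It had 1361.0 and 1653.3 on the FSH antibody arrays, against 1730.4 and 1651.1 on the control IgG arrays. The part of these markers in the Gja1 value was not tested. In whole testis, fewer cells of a type and less RNA per cell cannot be told apart. The mean log2 value of Gja1 in the FSH antibody group was 5.33, close to the filter level, and with a constant of 64 in place of 16 the change was -0.37. The suffix of this probe set marks probes that several transcripts may share.

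The tested transcripts of other named genes with the pattern nearest to that of Gja1 over the 4 arrays were those of Gabrr1, a GABA receptor subunit, Ccnd2, a G1 cyclin, and Slc16a1, a lactate and pyruvate transporter. Nearness was the Euclidean distance between log2 values centred on their own mean, and it was 0.100 for Gabrr1, 0.108 for Ccnd2 and 0.131 for Slc16a1. Their changes were -0.74, -0.64 and -0.78, with adjusted p of 0.299, 0.305 and 0.150 by limma. These genes were picked by their pattern over the same 4 arrays, so changes like that of Gja1 follow from the choice. Gabrr1 had 20.5 and 23.0 on the FSH antibody arrays, against 44.7 and 49.5 on the control IgG arrays. Its FSH antibody group lay below the filter level, so it was tested only through its control IgG values.

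The RefSeq promoter table (build GRCr8) held 7 of the 8 genes, all but Cdh2. The promoters of Gja1 and Jup are shown because they belong to the transcripts with the smallest p on the lower and on the higher side among the genes in that table. Each window runs from 250 bases before to 50 bases after the start that the table uses, 5′ to 3′ on the gene's strand. Capitals mark every match, on either strand, to the cAMP response element TGACGTCA, its core TGACG, the AP-1 motif TGAGTCA and the GC box GGGCGG. The core lies within the full cAMP response element, and no matches in these windows overlapped otherwise.
Gja1, chr20:36302314-36302613, plus strand: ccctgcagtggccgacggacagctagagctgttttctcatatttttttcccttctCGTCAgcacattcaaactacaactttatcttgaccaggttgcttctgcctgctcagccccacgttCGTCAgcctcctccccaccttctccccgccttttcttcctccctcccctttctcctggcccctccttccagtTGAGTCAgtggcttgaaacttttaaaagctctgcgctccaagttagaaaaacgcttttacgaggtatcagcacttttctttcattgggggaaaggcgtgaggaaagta
Jup, chr10:85827380-85827679, minus strand: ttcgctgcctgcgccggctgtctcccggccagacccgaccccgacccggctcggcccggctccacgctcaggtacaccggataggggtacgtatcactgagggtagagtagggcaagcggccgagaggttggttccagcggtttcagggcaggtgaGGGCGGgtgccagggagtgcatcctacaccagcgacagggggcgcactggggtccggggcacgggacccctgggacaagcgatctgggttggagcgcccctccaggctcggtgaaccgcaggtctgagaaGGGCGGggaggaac

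In the Gja1 window an AP-1 match began at position -58 from the start, and the core TGACG was found on the opposite strand, as CGTCA, at -195 and -130. In the Jup window the GC box was found at -94 and 37. The full cAMP response element was in 0 of the 7 windows, against 1.83% of 33469 promoter windows of the same length. The core was in 3 of the 7 (Gja1, Gjb2 and Ctnnb1), against 21.2% of all. The AP-1 motif was in 1 of the 7 (Gja1), against 4.63%, and the GC box in 4 of the 7 (Gja4, Gja5, Gjb2 and Jup), against 33.1%. A match is a run of letters and does not show that a factor binds there.

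Gja4 encodes Cx37, a connexin of the endothelium and, in the ovary, of the oocyte. Its probe set M76532cds_at had intensities of 80.4 and 67.6 on the FSH antibody arrays, against 36.0 and 61.2 on the control IgG arrays. The groups did not overlap, but the lower FSH antibody array was close to control IgG replicate 2, and the control arrays differed from each other by 0.57 on the log2 scale. The change was 0.50 ± 0.23 (95% interval -0.01 to 1.01, adjusted p = 0.623 by limma). It was 0.22 without control IgG replicate 1, 0.79 without control IgG replicate 2 and 0.30 with a constant of 64. The endothelial marker sum was also higher on both FSH antibody arrays, with all 4 tested endothelial markers higher and 0 called. Among all tested genes 55.7% were higher and 0.284% were called. Of the endothelial markers Edn1 differed most in intensity, with 88.1 and 89.8 on the FSH antibody arrays and 38.3 or less on the control IgG arrays. Flt1 and Nos3 also lay apart between the groups. Pecam1 overlapped, at 41.9 and 33.1 on the FSH antibody arrays, against 36.4 and 31.7 on the control IgG arrays. The part of these markers in the Gja4 value was not tested.

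Gja5 encodes Cx40, a connexin of arterial endothelium and the heart's conduction system. Its brightest probe set, M76535cds_at, had 119.9 and 145.9 on the FSH antibody arrays, against 130.9 and 112.7 on the control IgG arrays. The groups overlapped, with a change of 0.11 ± 0.18 (95% interval -0.30 to 0.52, adjusted p = 0.924 by limma). The probe set AF022136_at had 41.7 and 19.1 on the FSH antibody arrays, against 37.9 and 30.7 on the control IgG arrays. Its FSH antibody arrays enclosed both control arrays, and the change was -0.16 ± 0.27 (95% interval -0.75 to 0.44, adjusted p = 0.924 by limma). Leaving out FSH antibody replicate 2 turned both directions, to -0.02 for M76535cds_at and 0.20 for AF022136_at. With 1 array left out at a time, the change lay between -0.02 and 0.24 for M76535cds_at and between -0.52 and 0.20 for AF022136_at. The third probe set, M76535cds_g_at, made from the same source sequence as the brightest, was below the filter at 10.6 and 12.1 on the FSH antibody arrays, against 5.6 and 6.0 on the control IgG arrays. The 3 probe sets of Gja5 therefore did not share a direction.

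Gjb1 encodes Cx32, known from liver and from the Schwann cells of peripheral nerve. Its probe set X04070_at had 71.4 and 62.6 on the FSH antibody arrays, against 66.0 and 61.7 on the control IgG arrays. The groups overlapped. The change was 0.05 ± 0.18, and its 95% interval of -0.35 to 0.46 leaves room for changes of that size in either direction (adjusted p = 0.964 by limma). Without FSH antibody replicate 1 it was -0.02, and without FSH antibody replicate 2 it was 0.13. Gjb2 encodes Cx26, a connexin of liver and of the supporting cells of the inner ear. Its probe set X51615_g_at was below the filter, with 12.1 and 22.2 on the FSH antibody arrays, against 23.5 and 22.4 on the control IgG arrays. FSH antibody replicate 2 was within 0.2 intensity units of the nearer control array, so the lower group mean rested on FSH antibody replicate 1.

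Cdh2 encodes N-cadherin, the cadherin of adherens junctions between Sertoli cells and between Sertoli and germ cells. Its probe set AF097593_at had 103.0 and 100.8 on the FSH antibody arrays, against 68.8 and 61.5 on the control IgG arrays. Its probe set AF097593_g_at had 118.8 and 122.5 on the FSH antibody arrays, against 89.8 and 75.0 on the control IgG arrays. On both, the FSH antibody arrays lay above both control arrays and were within 0.04 of each other on the log2 scale. The changes were 0.54 ± 0.17 (95% interval 0.15 to 0.93, adjusted p = 0.469 by limma) and 0.48 ± 0.18 (95% interval 0.08 to 0.87, adjusted p = 0.552 by limma). The mean intensities in the FSH antibody group were 1.56 and 1.46 times those in the control IgG group. Both probe sets were made from the same source sequence, so they do not count as independent measurements. The Sertoli cell marker sum, most of which was Clu, overlapped between the groups, at 11851 and 12704 on the FSH antibody arrays and 13136 and 12402 on the control IgG arrays. Of 12 tested Sertoli cell markers 6 had a higher and 6 a lower mean log2 value, and 1 was called. Among all tested genes 55.7% were higher, 44.3% lower and 0.284% called. Some single Sertoli cell markers lay apart between the groups, in both directions, while others, such as Clu, overlapped. Testin had 114.4 and 127.9 on the FSH antibody arrays, against 28.2 and 33.1 on the control IgG arrays, while Inha, an inhibin subunit gene, had 804.3 and 682.0 on the FSH antibody arrays, against 1588.4 and 1224.2 on the control IgG arrays. The part of these markers in the Cdh2 values was not tested.

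The tested transcripts nearest in pattern to the brighter Cdh2 probe set were those of Sbk1, a protein kinase, at a distance of 0.043, Tpsab1, a mast cell tryptase, at 0.049, and Paqr7, a membrane progestin receptor, at 0.067. Their changes were 0.49, 0.50 and 0.47, and none passed (adjusted p of 0.580, 0.605 and 0.580 by limma).

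Jup encodes plakoglobin, the catenin found in both adherens junctions and desmosomes, where it links cadherin tails to actin or to intermediate filaments. Its probe set U58858_at had 306.5 and 318.2 on the FSH antibody arrays, against 227.5 and 216.7 on the control IgG arrays. The groups did not overlap, and arrays of 1 group differed by 0.07 at most on the log2 scale. The means were 312 ± 8.27 in the FSH antibody group and 222 ± 7.64 in the control IgG group (SD, n = 2 arrays each), a ratio of 1.41. The change was 0.46 ± 0.17 (95% interval 0.09 to 0.83, adjusted p = 0.534 by limma), and it lay between 0.40 and 0.50 under every setting tried.

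**Figure D3:**
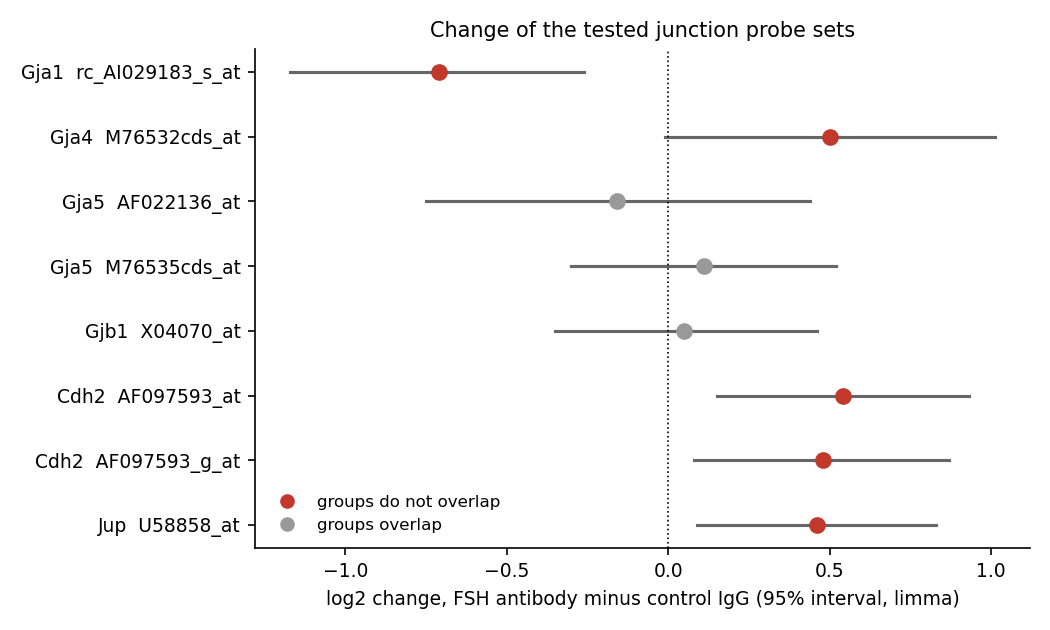
Log2 change (FSH antibody minus control IgG) of the 8 tested junction probe sets with the 95% interval from limma; red points mark probe sets whose groups do not overlap, grey points those that overlap. The intervals of Gja1, both Cdh2 probe sets and Jup exclude 0 before adjustment, and none of these passed the adjusted threshold.

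**Figure D4:**
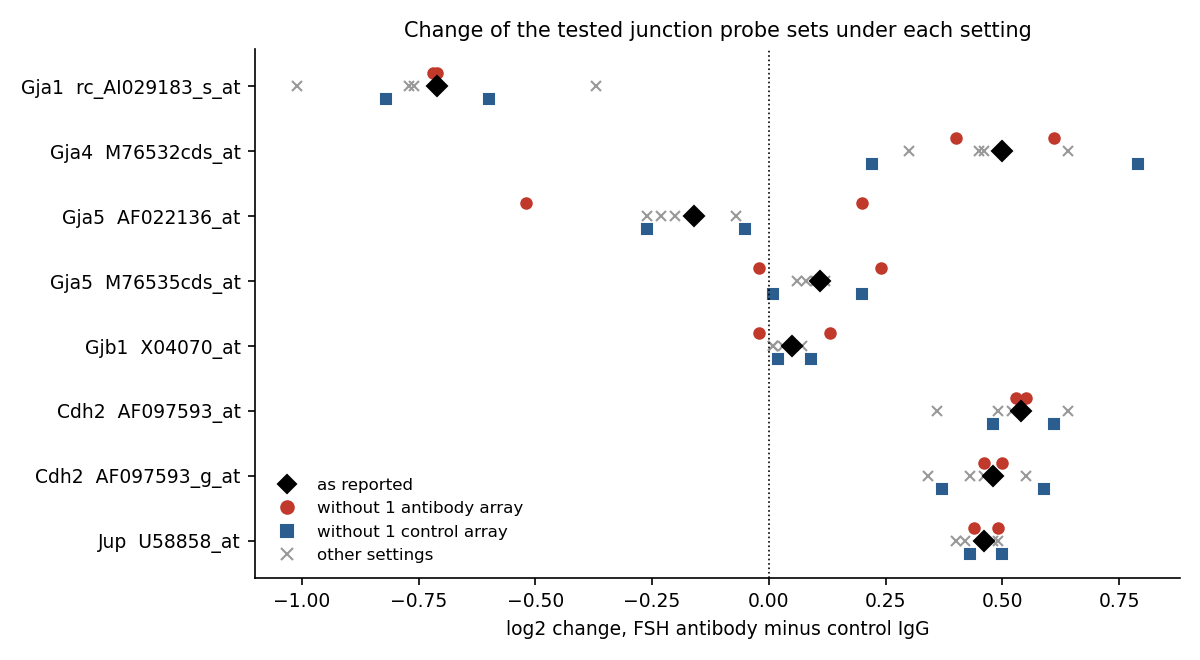
Log2 change (FSH antibody minus control IgG) of the same 8 probe sets under each setting: as reported (diamonds), without 1 FSH antibody array (circles), without 1 control IgG array (squares) and under the other settings (crosses). Gja1, Cdh2 and Jup stay on 1 side of 0 throughout, Gja4 spreads from 0.22 to 0.79, and Gja5 and Gjb1 cross 0.

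The other genes of these junctions, and genes of beta-catenin signalling and kinases of Cx43, were read from 8 lists. Each gene was read on its brightest probe set. They are called the other junction lists below, although the last 2 lists hold signalling genes. Together they held 168 genes, of which 64 were on the array and 48 were tested. Of these, 28 had higher and 20 lower values after the FSH antibody, against 55.7% higher and 44.3% lower among all 3169 tested genes. By limma 0 of the 48 were called, against 0.284% of all tested genes, and 3 had an unadjusted p under 0.05 (Prkce, Patj and Cldn7), against 7.86%. The groups did not overlap in 18 of the 48, with 15 higher and 3 lower, against 37.5% of all tested genes (22.4% higher, 15.1% lower). The median change was 0.09, against 0.03 over all tested genes, and it was 0.02 without control IgG replicate 2 and 0.04 with median centring.

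Among other connexins and pannexins 3 of 18 were tested, with 2 higher, 1 lower and 0 called (median 0.05). Gja6, the testis connexin Cx33, had 46.8 and 44.9 on the FSH antibody arrays, against 40.5 and 37.5 on the control IgG arrays, a change of 0.17 ± 0.19 (adjusted p = 0.877 by limma). Gjb5, a connexin of skin and placenta, gave 0.05, -0.33 and 0.60 across its probe sets, brightest first. Gja3, a connexin of the lens, gave -0.02.

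Of 25 cadherins and protocadherins 3 were tested, with 2 higher, 1 lower and 0 called (median 0.22). The atypical cadherin gene Celsr3 gave 0.33 ± 0.19 and Fat1, a giant cadherin, 0.22 ± 0.26, while Cdh16, the kidney cadherin, gave -0.34 ± 0.33. The other genes of this list on the array were too dim to be tested. In the plaque of adherens junctions and the nectins 3 of 22 were tested (2 higher, 1 lower, 0 called, median 0.09). The actin crosslinker Actn4 gave 0.16 and the adhesion molecule Nectin1 0.09. Across its probe sets, brightest first, Afdn, which ties nectins to actin, gave -0.10, 0.36 and 0.35. The only desmosome gene tested, of 14, was the plakophilin gene Pkp4 at 0.08, with 0 called.

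Of 26 tight junction genes 7 were tested, with 3 higher, 4 lower and 0 called (median -0.01). Patj, a scaffold of the cell polarity complex, had 83.1 and 72.8 on the FSH antibody arrays, against 59.6 and 30.6 on the control IgG arrays, a change of 0.66 ± 0.24 (adjusted p = 0.552 by limma). Cldn7, a claudin of many epithelia, gave 0.46 ± 0.20 (adjusted p = 0.605 by limma). Occludin, a membrane protein of the Sertoli cell barrier, had groups that did not overlap on any of its 3 Ocln probe sets, all lower after the FSH antibody. Among all tested probe sets the groups did not overlap in 37.4%, with 15.5% lower. The brightest Ocln probe set gave -0.08 ± 0.17, with 106.2 and 114.1 on the FSH antibody arrays, against 117.5 and 117.9 on the control IgG arrays. The others gave -0.53 ± 0.21 and -0.26 ± 0.18. The adjusted p values of the 3 Ocln probe sets were 0.934, 0.580 and 0.775 by limma, and the last 2 of these were made from the same source sequence.

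Of 22 genes of the ectoplasmic specialization, the actin-based junction particular to Sertoli cells, 12 were tested, with 8 higher, 4 lower and 0 called (median 0.16). Espn, which bundles actin there, gave 0.32 ± 0.20. The probe sets of the tyrosine kinase gene Fer gave 0.38 (brightest), -0.37 and -0.13, and those of the cytolinker gene Plec 0.23 (brightest) and -0.24. Of 28 genes of beta-catenin signalling 11 were tested, with 7 higher, 4 lower and 0 called (median 0.16). Myc gave 0.45 ± 0.23, the kinase gene Csnk1d 0.38 (brightest) and 0.05, and the phosphatase subunit gene Ppp2r1a 0.19 (brightest) and -0.14.

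Of 15 genes listed as kinases of Cx43 and related enzymes 9 were tested, with 4 higher, 5 lower and 0 called (median -0.03). Prkce, a protein kinase C gene, had 97.3 and 87.3 on its brightest probe set on the FSH antibody arrays, against 61.9 and 52.3 on the control IgG arrays, a change of 0.57 ± 0.18 (adjusted p = 0.463 by limma). Its other probe sets gave 0.18, 0.22 and 0.29. Prkcd, another protein kinase C gene, gave 0.35 ± 0.18 and 0.22 ± 0.18, and Csnk1d, also in this list, is given above.

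**Figure D5:**
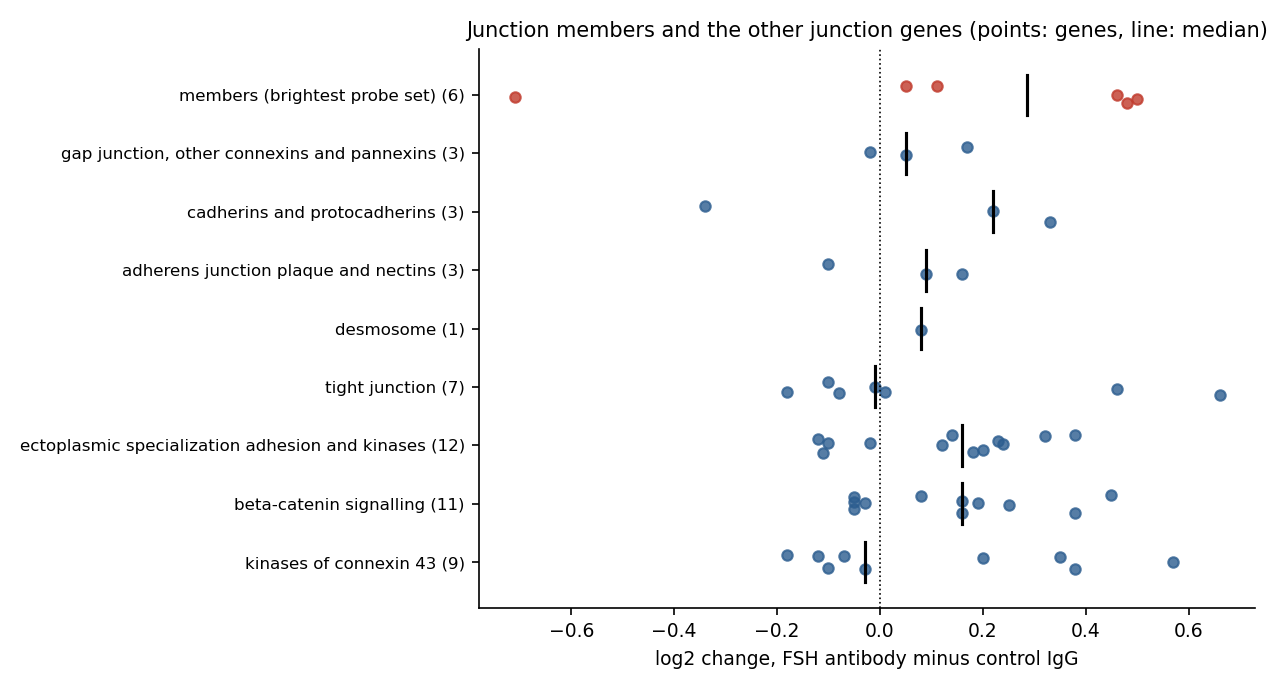
Log2 change (FSH antibody minus control IgG) of each tested gene on its brightest probe set, with a line at the median. The 6 tested junction genes described above are red. The 8 lists of other junction and signalling genes are blue, and the number of genes is in brackets. On these probe sets Gja1 is at -0.71, and the genes of the 8 lists lie between -0.34 and 0.66. A dimmer tested probe set of Ocln, not drawn here, gave -0.53. Gja1 was chosen with earlier results of the same arrays known, so its place does not set it apart.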

How the data were processed

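The authors deposited 1 linear intensity per probe set and array. How these intensities were computed, background-corrected and scaled is not stated in the labels or the deposited table. The mean of each array without its lowest and highest 2% of probe sets was 125, so a common scaling had already been applied. No detection calls were used, so signal over background is unknown, and the number of arrays limits the precision. Array medians were 36.5 to 40.4, and nothing further was normalized. The 59 control probe sets among the 8799 were left out. Annotated symbols were updated by Entrez identifier to the RefSeq table of assembly GRCr8, which left 7018 probe sets with 1 symbol, 308 with several and 1473 with none. Coordinates are given for RefSeq promoters only.

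Log2(intensity + 16) values were fitted in R 4.3.3 with limma 3.58.1 (lmFit, then eBayes with a variance trend) on the 5252 probe sets whose mean log2 value reached the 40th percentile over all probe sets, controls included. That basis was chosen after a first fit had been seen with the percentile over the probe sets that are no controls, which tested 5244 and called 0 junction probe sets. Tests were two-sided and p-values were adjusted by Benjamini-Hochberg over all of these, with a threshold of 0.05. The code was tested on simulated data. Lists are described by each gene's brightest probe set, with no list test. The text names all junction probe sets, the 3 genes of each list with the smallest unadjusted p, and the 3 nearest patterns for Gja1 and Cdh2. The junction genes, the lists and the marker lists were chosen with earlier results of these data known. Alternative settings were quantile normalization, median centring, another constant (1 or 64), another filter (none, or the 60th percentile), eBayes without the trend, no moderation, 1 array left out, a block for the replicate number, and averaging the probe sets of a gene.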

Additional observations from a re-analysis of the deposited data

How the results depend on the processing

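No junction probe set passed under any setting in which it was tested; the smallest adjusted p by limma was 0.163, for Gja1 without FSH antibody replicate 1. No gene of the other junction lists passed under any setting (smallest adjusted p 0.0920). Gja1, Gja4, both Cdh2 probe sets and Jup kept their direction in all settings that tested them. Directions turned for 3 probe sets with 1 array left out: Gja5 (AF022136_at) ranged from -0.52 to 0.20 and Gja5 (M76535cds_at) from -0.02 to 0.24, each turning without FSH antibody replicate 2, and Gjb1 from -0.02 to 0.13, turning without FSH antibody replicate 1. The median over the junction genes, 0.29 as reported, was 0.24 with median centring, 0.19 with a constant of 64, 0.11 with no filter, 0.26 with the probe sets of each gene averaged, and 0.19 to 0.32 with 1 array left out. The median over the other junction lists, 0.09 as reported, was 0.04 with median centring, 0.06 with quantile normalization, 0.06 with a constant of 64 and 0.02 to 0.13 with 1 array left out, lowest without control IgG replicate 2. With no filter the dim Gja5 and Gjb2 probe sets gave 0.33 and -0.25 (adjusted p of 0.583 and 0.793 by limma).

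Over all probe sets 14 were called as reported, 0 with quantile normalization, 0 with no filter and 0 with no moderation (420, 702 and 352 at an unadjusted p under 0.05), 4 with median centring and 39 with the replicate number as a block. Leaving out 1 array gave 0 to 153 calls; it was 0 without control IgG replicate 1 and without control IgG replicate 2, 153 without FSH antibody replicate 1 and 94 without FSH antibody replicate 2; these fits assume that a group left with 1 array varies as the other group does. The replicate block called 0 junction probe sets. With the filter percentile over the probe sets that are no controls, an alternative added after seeing the data, 14 probe sets and 0 junction probe sets were called. Same-numbered arrays did not deviate together (r = 0.004 across probe sets of deviations from the group means). With 2 arrays in each group this value cannot show whether they share a batch. The labels name no pairing, so the block stands for the replicate number only. The cause of these changes was not tested. Without detection calls, how far background weighs on dim probe sets such as Gja1 is not known.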

Other observations

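Several junction genes of the array had only probe sets too dim for the test, and values picked out after they were seen are given here as they stand. For Cdh22, a cadherin known from brain and pituitary, probe set D83349_at had 13.4 and 11.2 on the FSH antibody arrays, against 28.9 and 23.3 on the control IgG arrays, while D83348_at had 1.0 and 3.7 on the FSH antibody arrays, against 1.3 and 1.1 on the control IgG arrays. With no filter on dim probe sets, D83349_at gave a log2 change of -0.57 ± 0.19 and D83348_at 0.09 ± 0.09 (SE; adjusted p of 0.551 and 0.816 by limma). For Cdh8, known from brain, AB010436_at had 22.4 and 24.4 on the FSH antibody arrays, against 17.8 and 2.0 on the control IgG arrays, where control IgG replicate 2 alone was low. Its other probe set, AB010437_at, had 1.7 and 1.6 on the FSH antibody arrays, against 1.4 and 1.5 on the control IgG arrays. With no filter the changes of these Cdh8 probe sets were 0.68 ± 0.30 and 0.02 ± 0.07 (SE; adjusted p of 0.629 and 0.957 by limma). Gjd2, a connexin of neurons, was at 4.1 or below on all 4 arrays.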
